A study of Homo sapiens with 4 samples.

Results

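The 10 CACNA1 genes, which encode the pore-forming alpha subunits of voltage-gated calcium channels, were examined in K562 cells with and without the JAZF1-SUZ12 fusion. They were taken by gene symbol from a table of 35606 genes, and all 10 symbols were found once. The family was chosen by readouts of this same contrast, the measured differences between the groups, which were known when it was put forward, so the changes of its members are a description of where they lie in the fit across all genes and are not independent evidence. K562 cells are an established human leukaemia line that makes embryonic and fetal globins. There were 2 groups of 2 libraries each: K562 cells labelled as expressing JAZF1-SUZ12, a chimaeric protein of JAZF1 and the Polycomb subunit SUZ12 known from tumours of the uterine stroma, and K562 cells labelled mock. The labels do not say how the fusion was introduced, what the mock cells carry or whether the 2 libraries of a group came from separate cultures, so p-values measure only the spread between these libraries.

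Each alpha subunit forms the calcium-conducting pore and carries the voltage sensors, and a cell's choice of alpha subunit sets the kind of calcium current it can make. T-type channels (CACNA1G, CACNA1H, CACNA1I) open at weak depolarization. L-type channels (CACNA1C, CACNA1D, CACNA1F, CACNA1S) and the P/Q-, N- and R-type channels (CACNA1A, CACNA1B, CACNA1E) need stronger depolarization and work with accessory beta and alpha2delta subunits. The family is best known from neurons, muscle, endocrine cells and the retina rather than from blood precursors.

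The libraries held between 17260936 and 24423028 estimated counts. Replicates differed by more than sampling noise, with a chi-square per degree of freedom of 3.86 for the JAZF1-SUZ12 pair and 3.61 for the mock pair. JAZF1 had 12 and 27 counts in mock against 574 and 731 with the fusion, and SUZ12 had 2781 and 2798 against 4754 and 6582, both in the direction of the labels. The source label gives uterus, whereas all 9 erythroid markers examined were over 3 counts in every library. Of 6 uterine stromal markers none was called (edgeR; of the 2 tested, PGR and DCN, PGR had an unadjusted p under 0.05), LUM was at 0 in every library and COL3A1 had at most 3 counts. PGR had 99 and 93 counts in mock and 117 and 147 with the fusion, ESR1 had 4 and 4 against 14 and 11, DCN had 20 and 6 against 11 and 14, and PDGFRA had 5 and 6 against 3 and 0. The summed CPM of these 6, most of it PGR, was 5.26 to 6.45 in mock and 7.05 to 8.47 in JAZF1-SUZ12 libraries. The summed CPM of the erythroid markers was 11247 to 11575 in mock and 12937 to 13307 in JAZF1-SUZ12 libraries, and 5 of the 9 were called higher. The summed CPM of 8 neuronal markers was 39.6 and 40.4 in mock and 70.3 and 73.6 in JAZF1-SUZ12 libraries, nearly all of it SYP. The neuronal markers STMN2, ELAVL3, ELAVL4 and INA had 0 counts in every library. The summed CPM of 6 striated muscle markers lay between 75.5 and 79.7 in mock and was 82.9 and 93.7 in JAZF1-SUZ12 libraries, with MYOD1 at 0 in all of them and DES called higher. In 4 neuroendocrine markers the sum lay between 0.986 and 1.18 CPM in all libraries, with INSM1 at 0. The part of these markers in the channel results was not tested. In RNA from whole cultures, more cells with a transcript and more transcript per cell cannot be told apart.

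CPM here are counts per 1000000 of a library's total, scaled by TMM, the trimmed mean normalization of edgeR. A difference was called when edgeR's quasi-likelihood test gave a Benjamini-Hochberg adjusted p under 0.05 over the 14750 genes that passed a filter on low counts. Of the 10 members, 5 passed that filter: CACNA1A, CACNA1F, CACNA1G, CACNA1H and CACNA1I. CACNA1G passed only through its JAZF1-SUZ12 libraries. Of the 5 tested members, 3 were called higher, namely CACNA1G, CACNA1H and CACNA1F, and none was called lower (by the same edgeR test 4 had an unadjusted p under 0.05, all 4 of them higher, and DESeq2 called 3 higher and 0 lower). Of the 14750 genes, the share called higher was 13.3% and the share called lower 11.4%. CACNA1G, CACNA1H and CACNA1F were also at least 2-fold higher, which held with a call for 5.55% of all genes. Since the contrast was known when the family was put forward, nothing is read from that count. The median log2 fold change of the 5 tested members was 1.43, against 0.0032 over all genes tested.

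**Figure D1:**
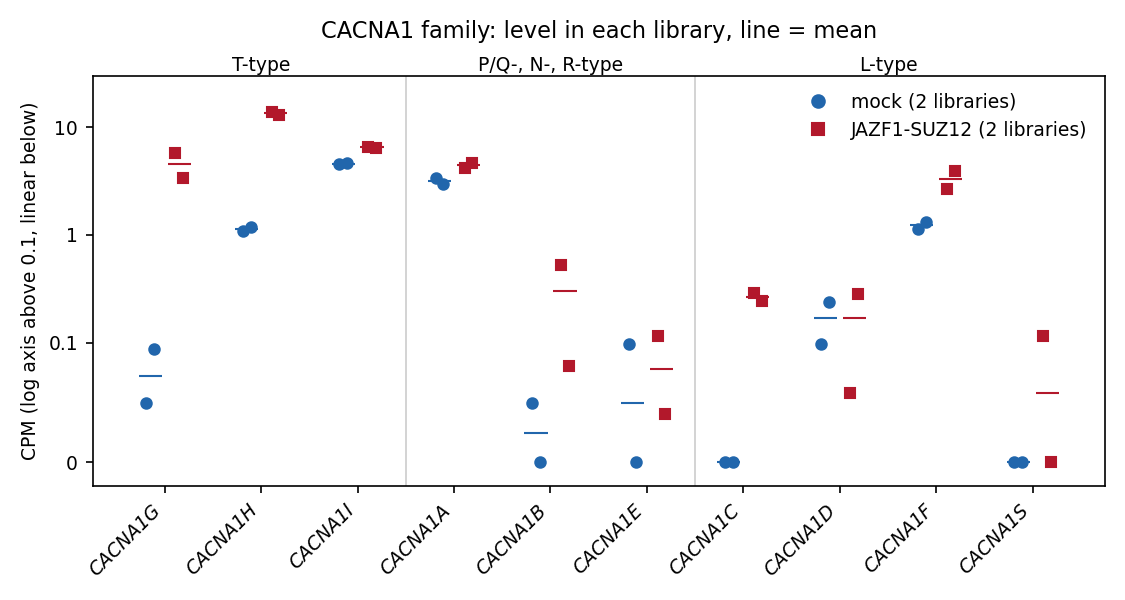
Level of each CACNA1 gene in CPM, on the scale defined in the text, in the 2 mock libraries (circles) and the 2 JAZF1-SUZ12 libraries (squares), with short lines for group means, ordered by channel class; the axis is logarithmic above 0.1 and linear below. CACNA1H and CACNA1G show the widest gaps between groups, and 5 genes lie below 1 CPM in all 4 libraries.

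Among the T-type genes, CACNA1H changed with the smallest p-value of the family. CACNA1H (ENSG00000196557; GRCh38 chromosome 16, 1153121 to 1221772, plus strand) encodes a T-type subunit known from sensory neurons and the adrenal cortex. Its counts were 22 and 25 in mock and 239 and 321 with the fusion. Both JAZF1-SUZ12 libraries lay far above both mock libraries. The level rose from 1.13 ± 0.072 to 13.4 ± 0.662 CPM (SD, n = 2 each), or by 3.55 ± 0.20 log2 units (SE; edgeR, adjusted p = 8.15e-09). By p-value it was in place 14 of the 14750 genes tested, and by log2 fold change in place 84.

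CACNA1G, a T-type subunit known for pacemaking and thalamic rhythm, went from almost no reads to a level like that of its relatives. CACNA1G (ENSG00000006283; chromosome 17, 50561068 to 50627474, plus strand) was found with 1 and 2 counts in mock and with 99 and 83 in the fusion libraries. The groups did not overlap, although the JAZF1-SUZ12 libraries themselves differed, at 5.74 CPM in replicate 1 and 3.34 CPM in replicate 2. The ratio of summed counts, scaled for depth, was 59.8, with an exact 95% interval from 20.1 to 293 that covers counting error only. Set against 3 counts in each mock library, the fold was 31.4. The fitted change was 5.84 ± 0.56 log2 units (SE; edgeR, adjusted p = 1.50e-06), a value that depends on the prior count used for so few mock reads. An antisense gene, CACNA1G-AS1, overlaps the start of CACNA1G in the annotation and is not analysed here; whether the counting used strand is not stated, so reads of the pair may not be told apart.

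CACNA1I, the third T-type gene, known from thalamic and other central neurons, did not pass the test. CACNA1I (ENSG00000100346; chromosome 22, 39570753 to 39689737, plus strand) had 92 and 98 counts in mock and 113 and 159 in JAZF1-SUZ12 libraries. These are 4.53 and 4.64 CPM against 6.56 and 6.41 CPM, so the groups did not overlap and the libraries of each group lay close together. The fitted difference was 0.50 ± 0.19 log2 units (SE; edgeR, adjusted p = 0.0664), and over 11 alternative fits the adjusted p lay between 0.0603 and 0.243.

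Among the L-type genes, CACNA1F was tested and the other 3 were not. CACNA1F (ENSG00000102001; chromosome X, 49205063 to 49233371, minus strand) encodes the L-type subunit of photoreceptor synapses. It had 23 and 28 counts in mock and 46 and 97 in JAZF1-SUZ12 libraries. At 2.67 and 3.91 CPM, both JAZF1-SUZ12 libraries were above both mock libraries, at 1.13 and 1.33 CPM. CACNA1F rose by 1.43 ± 0.33 log2 units (SE; edgeR, adjusted p = 0.00532). This call rested on JAZF1-SUZ12 replicate 2: without it the log2 fold change was 1.11 and the adjusted p was 0.110, and over the 10 alternative fits with a value the adjusted p ran from 0.000127 to 0.110.

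CACNA1C, the L-type subunit of heart and smooth muscle, was at 0 counts in both mock libraries and at 5 and 6 with the fusion. Set against 3 counts per mock library it was 1.84-fold higher, a value that makes no allowance for counting error in the JAZF1-SUZ12 libraries. CACNA1D, an L-type subunit of endocrine and pacemaker cells, had 2 and 5 counts in mock and 1 and 7 in JAZF1-SUZ12 libraries, and the groups overlapped. CACNA1S, the L-type subunit of skeletal muscle, had 0 counts in 3 libraries and 2 counts in JAZF1-SUZ12 replicate 1. No fold is given for CACNA1S, which was at most 3 counts everywhere.

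Of the neuronal P/Q-, N- and R-type genes, CACNA1A alone had enough counts to be tested. CACNA1A (ENSG00000141837; chromosome 19, 13206442 to 13633025, minus strand), the P/Q-type subunit of presynaptic terminals and Purkinje cells, had 69 and 63 counts in mock and 72 and 116 in JAZF1-SUZ12 libraries. In CPM the groups did not overlap, at 3.40 and 2.98 against 4.18 and 4.67. The fitted difference of 0.48 ± 0.23 log2 units (SE) was not called (edgeR, adjusted p = 0.153). CACNA1B, the N-type subunit, had 1 and 0 counts in mock and 9 and 2 in JAZF1-SUZ12 libraries. Its ratio of summed counts was 10.8 with an exact 95% interval from 1.58 to 466, and most of those counts came from JAZF1-SUZ12 replicate 1. CACNA1E, the R-type subunit, had at most 2 counts in every library.

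When no filter on low counts was used, the 5 sparse members could be tested too, and none of them was called. The smallest p among them belonged to CACNA1C (edgeR with no filter, unadjusted p = 0.0216), and its adjusted p was 0.1002. The same fit called CACNA1F, CACNA1G and CACNA1H, with 9.17% of all genes called higher. In 5 of the 5 members that passed the filter, both JAZF1-SUZ12 libraries were above both mock libraries in CPM, against 31.0% of all genes tested, and nothing is read from this count either.

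**Figure D2:**
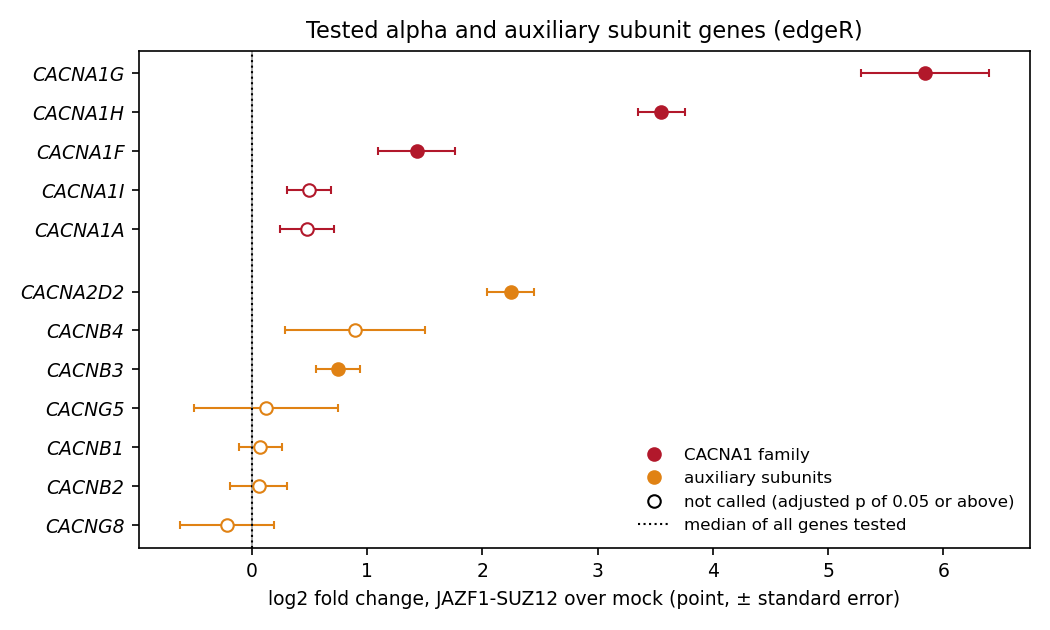
Log2 fold change of JAZF1-SUZ12 over mock, with its standard error, for the tested genes of the CACNA1 family and the auxiliary subunits; filled points were called and open points were not. CACNA1G at 5.84 and CACNA1H at 3.55 lie farthest from the median of all genes tested, at 0.0032.

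Levels of different members were compared per length, as CPM per kilobase of the longest annotated transcript. In mock libraries the order was led by CACNA1I at 0.458 ± 0.0081 CPM per kilobase and CACNA1A at 0.368 ± 0.034, followed by CACNA1F at 0.202 ± 0.023 and CACNA1H at 0.138 ± 0.0087 (SD, n = 2 each). The library values of these 4 genes did not overlap with those of the next gene in the order. The remaining 6 were between 0 and 0.019 CPM per kilobase and overlapped with their neighbours in the order. CACNA1G stood among those 6 in mock, at 0.0088 ± 0.0040.

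In JAZF1-SUZ12 libraries CACNA1H moved from place 4 to the top of the order, at 1.63 ± 0.081 CPM per kilobase, and did not overlap with the next gene. CACNA1I at 0.648 ± 0.011, CACNA1G at 0.558 ± 0.209, CACNA1F at 0.542 ± 0.144 and CACNA1A at 0.511 ± 0.040 followed (SD, n = 2 each). Each of these 4 overlapped with its neighbour within that set, so most of their order among themselves is not resolved. CACNA1I, at 0.640 and 0.655, did not overlap with CACNA1A, at 0.482 and 0.539. With the median transcript as the length, CACNA1A was above CACNA1I in JAZF1-SUZ12 libraries, at 2.24 against 0.962. CACNA1A did not overlap with the next gene, CACNA1B, at 0.031 ± 0.032. The lead of CACNA1H in JAZF1-SUZ12 libraries also held with the longest coding sequence or the median transcript as the length. In mock the median transcript length, which is short for CACNA1A, put CACNA1A first at 1.62 and CACNA1I next at 0.680 CPM per kilobase.

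**Figure D3:**
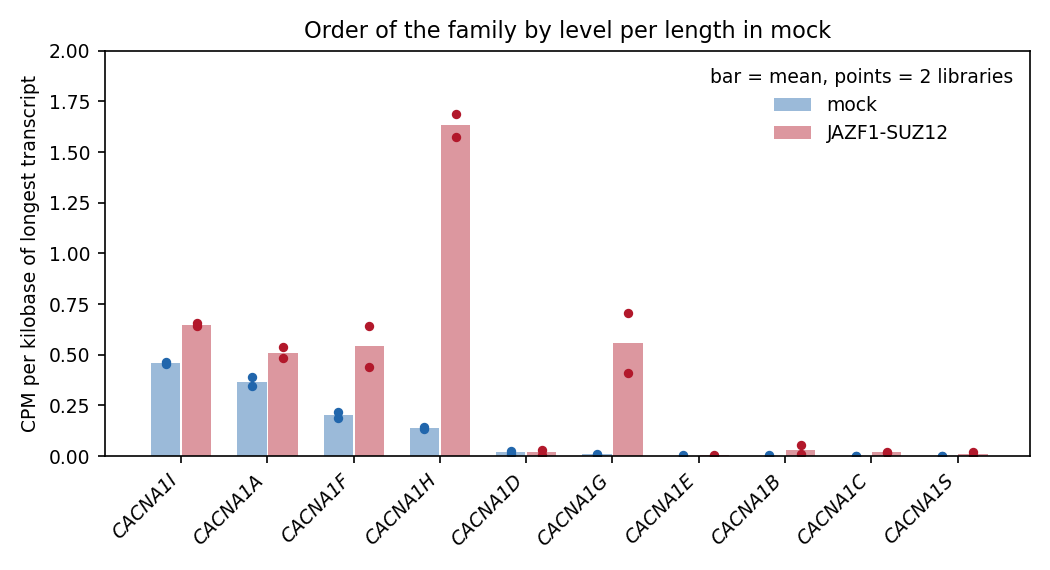
Level of each CACNA1 gene in CPM per kilobase of its longest annotated transcript, in the order found in mock; bars are group means and points are the 2 libraries. CACNA1H goes from 0.138 to 1.63 and CACNA1G from 0.0088 to 0.558, whereas CACNA1D is at 0.019 in both groups.

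Summed over the family, the level per kilobase was 1.20 ± 0.013 in mock and 3.97 ± 0.149 in JAZF1-SUZ12 libraries (SD, n = 2 each). The T-type genes made up 49.6% and 51.3% of that sum in mock and 74.8% and 67.9% with the fusion. The share of the P/Q-, N- and R-type genes was 33.8% and 28.5% in mock and 13.3% and 14.2% in JAZF1-SUZ12 libraries. Their summed level was nevertheless higher there, at 0.546 ± 0.0052 against 0.374 ± 0.041 CPM per kilobase. Most of it was CACNA1A, which was not called, at 0.511 ± 0.040 against 0.368 ± 0.034. In JAZF1-SUZ12 libraries CACNA1A was lower and CACNA1B higher in replicate 1 than in replicate 2, which makes the SD of the sum small. The L-type share overlapped between groups, at 16.6% and 20.2% against 11.9% and 17.9%. With the median transcript as the length the T-type share was 30.1% in mock and 54.5% in JAZF1-SUZ12 libraries, so its size depends on the length used while its direction did not.

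**Figure D4:**
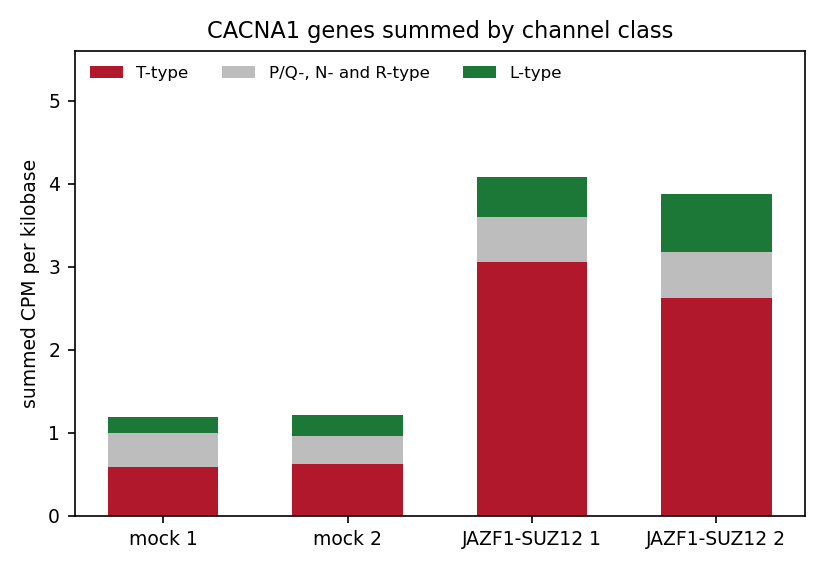
Summed CPM per kilobase of the CACNA1 genes in each library, stacked by channel class. The T-type part is 0.590 and 0.620 in mock and 3.05 and 2.63 with the fusion.

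The accessory subunits were examined next, as 4 alpha2delta and 4 beta subunit genes and the 8 CACNG genes, taken as gamma subunits by name only. Whether the protein of each CACNG gene works with these channels was not examined. Alpha2delta subunits sit outside the membrane and raise the number of high-voltage-activated channels at the cell surface, and beta subunits bind the alpha subunit from inside the cell. Of the 16 genes, 7 passed the filter, 2 were called higher and none lower (edgeR; the 2 called genes were also the ones with an unadjusted p under 0.05, and DESeq2 called 2 higher and 0 lower). The median log2 fold change of the 7 was 0.12, against 0.0032 over the 14750 genes, where 13.3% passed as higher.

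CACNA2D2, an alpha2delta subunit, had 39 and 46 counts in mock and 177 and 230 in JAZF1-SUZ12 libraries. The groups were far apart, and CACNA2D2 (ENSG00000007402; chromosome 3, 50362799 to 50504244, minus strand) had mean levels of 2.05 ± 0.184 CPM in mock and 9.77 ± 0.710 CPM with the fusion (SD, n = 2 each). It rose by 2.25 ± 0.20 log2 units (SE; edgeR, adjusted p = 8.48e-07). The other alpha2delta genes were nearly silent: CACNA2D1 had 0 counts in every library, CACNA2D3 at most 1 and CACNA2D4 at most 5.

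CACNB3, a beta subunit, had 86 and 113 counts in mock and 148 and 188 in JAZF1-SUZ12 libraries. Its 4 libraries did not overlap between groups, at 4.23 and 5.35 against 8.59 and 7.57 CPM. CACNB3 rose by 0.75 ± 0.19 log2 units (SE; edgeR, adjusted p = 0.00829). Without mock replicate 1 it was 0.59 and not called (adjusted p = 0.0693), and over 11 alternative fits the adjusted p ran from 0.00108 to 0.0693. The other beta genes were present and not called: CACNB1 was at 6.91 ± 0.596 and 7.19 ± 1.80 CPM and CACNB2 at 4.38 ± 0.769 and 4.50 ± 1.44 CPM in mock and JAZF1-SUZ12 libraries (SD, n = 2 each). CACNB4 had between 5 and 36 counts. Of the 8 gamma genes, CACNG5 and CACNG8 were tested and not called, and the other 6 had at most 2 counts in a library.

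CpG-rich promoters are where Polycomb complexes, of which SUZ12 is a subunit, are known to gather in mammalian cells, so the CG content before the gene starts was read, a description added after the values were seen. Sequences before RefSeq starts (GRCh38.p14) were available here for 8 of the 10 CACNA1 genes. CACNA1G and CACNA1H were missing from the set of sequences used, so their CG content was not read. The 250 bases before the annotated start are shown for 2 tested members, CACNA1I and CACNA1F, and for both RefSeq starts of CACNA2D2. These cover called genes with few and many CG and an uncalled gene with few. They are printed 5′ to 3′ on the gene's strand, with every CG in capitals. CG reads the same on both strands.
CACNA1I, chr22:39570503-39570752, plus strand: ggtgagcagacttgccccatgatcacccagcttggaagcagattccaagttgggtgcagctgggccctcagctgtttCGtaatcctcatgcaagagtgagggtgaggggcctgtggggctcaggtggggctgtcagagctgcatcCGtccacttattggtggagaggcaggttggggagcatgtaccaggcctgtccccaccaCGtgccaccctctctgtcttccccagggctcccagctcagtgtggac
CACNA1F, chrX:49233341-49233590, minus strand: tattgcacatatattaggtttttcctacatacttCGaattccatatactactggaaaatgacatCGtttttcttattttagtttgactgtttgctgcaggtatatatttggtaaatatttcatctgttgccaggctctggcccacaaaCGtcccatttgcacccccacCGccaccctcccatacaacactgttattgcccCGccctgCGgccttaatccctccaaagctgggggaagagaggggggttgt
CACNA2D2, chr3:50504245-50504494, minus strand: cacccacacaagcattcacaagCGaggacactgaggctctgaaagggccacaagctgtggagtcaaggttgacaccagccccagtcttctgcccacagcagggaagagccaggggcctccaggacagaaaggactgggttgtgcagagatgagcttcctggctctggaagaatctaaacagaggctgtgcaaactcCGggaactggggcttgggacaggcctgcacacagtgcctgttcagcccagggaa
CACNA2D2, chr3:50503635-50503884, minus strand: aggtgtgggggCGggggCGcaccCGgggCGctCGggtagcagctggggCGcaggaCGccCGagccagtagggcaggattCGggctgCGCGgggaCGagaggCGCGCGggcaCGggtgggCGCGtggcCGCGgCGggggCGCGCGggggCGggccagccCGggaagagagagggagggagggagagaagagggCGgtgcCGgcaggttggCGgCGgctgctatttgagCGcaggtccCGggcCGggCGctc

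These windows hold 3 CG for CACNA1I, 6 for CACNA1F, and 2 and 34 for the outer and the inner start of CACNA2D2. The median over 35116 RefSeq windows of the same length was 11. At least as many CG were found in 77.1%, 61.9%, 85.3% and 6.84% of all windows. The windows of CACNB3, which was called higher, hold 16, 14 and 22. The window of CACNA1A, which was not called, holds 17, and those of the sparse CACNA1B, CACNA1C and CACNA1D hold 39, 51 and 41. Those of CACNA1E and CACNA1S, which had at most 2 counts in any library, hold 4 and 7, so sparse members were found both above and below the median. The counts do not say which start was used in these cells.

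The genes next to each tested member were read in the same fit, as the nearest tested gene on each side, a description added after the values were seen. CACNA1F lies between SYP, 4.8 kb away, and CCDC22, 2.1 kb away. SYP, which encodes a synaptic vesicle protein, had 793 and 850 counts in mock and 1202 and 1805 in JAZF1-SUZ12 libraries, and rose by 0.85 (log2; edgeR, adjusted p = 1.25e-07). CCDC22 rose by 0.52 (edgeR, adjusted p = 2.79e-05). Both tested neighbours of CACNA1F were thus called higher, as it was, where 13.3% of all genes tested were called higher.

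CACNA1G lies between SPATA20, 5.2 kb away, and ABCC3, 7.3 kb away. ABCC3, an export pump of the ABC family, had 32 and 43 counts in mock and 76 and 130 in JAZF1-SUZ12 libraries, and rose by 1.42 (log2; edgeR, adjusted p = 0.00107). SPATA20 was not called (log2 fold change 0.61; edgeR, adjusted p = 0.0608). On one side of CACNA1H, 166.1 kb away, the transcription factor gene SOX8 had 7 and 19 counts in mock and 43 and 67 in JAZF1-SUZ12 libraries and rose by 2.05 (edgeR, adjusted p = 0.00287). Like CACNA1G, SOX8 passed the filter on low counts only through its JAZF1-SUZ12 libraries, so its call is a description only.

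No neighbour of CACNA1I or CACNA1A, the tested members that were not called, was called higher. With 13.3% of all genes tested called higher, nothing is read from so few neighbours. RPS19BP1, 37.9 kb from CACNA1I, fell by 0.18 on the log2 scale (edgeR, adjusted p = 0.0394). IER2 and CCDC130 beside CACNA1A stood at -0.068 and -0.018 log2 units, neither called (edgeR, adjusted p = 0.328 and 0.926). Beside CACNA2D2, TMEM115 fell by 0.28 and C3orf18 rose by 0.68 (edgeR, adjusted p = 0.0327 and 0.0394). Whether neighbouring genes share a change more often than other genes was not tested.

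**Figure D5:**
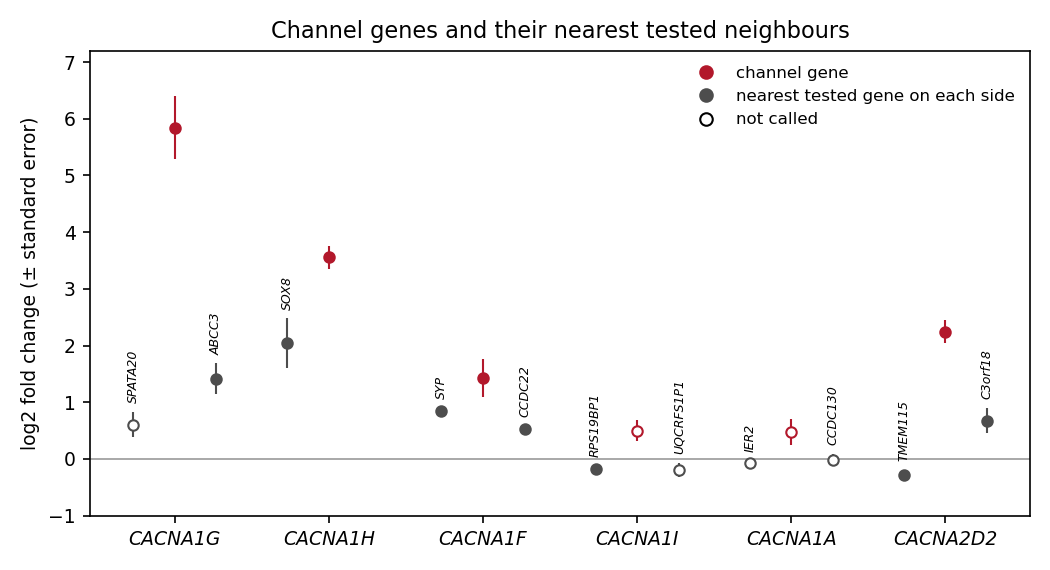
Log2 fold change with its standard error for the tested CACNA1 genes and CACNA2D2 and for the nearest tested gene on each side, except that 1 side of CACNA1H is not shown; filled points were called and open points were not. Each of CACNA1G, CACNA1H and CACNA1F has at least 1 neighbour that was called higher, and each of the 3 lies above the neighbours drawn beside it. Of all genes tested, 13.3% were called higher. SOX8, drawn beside CACNA1H, passed the filter on low counts only through its JAZF1-SUZ12 libraries.

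Regulators of the channels and other calcium-handling genes mostly had small differences. Of 12 regulators, 8 were tested, 3 were called lower and none higher (edgeR; 0 higher at an unadjusted p under 0.05), with a median log2 fold change of -0.14. Among them CALM2 and CALM3, whose calcium-sensing protein binds several channel alpha subunits, were at -0.16 and -0.12 (log2; edgeR, adjusted p = 0.0193 and 0.0480). Neither was called without mock replicate 1 (adjusted p = 0.233 and 0.142). CALM3 was not called without JAZF1-SUZ12 replicate 2 (adjusted p = 0.188) or without mock replicate 2 (adjusted p = 0.186), and it was also not called with total counts in place of TMM (adjusted p = 0.0595). Of all 14750 genes, 11.4% were called lower.

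Of 28 genes of store-operated entry, release, pumps and exchangers, 20 were tested, 1 was called higher and 1 lower, with a median of 0.065. In the same edgeR fit, 13.3% of the 14750 genes passed as higher and 11.4% as lower. ATP2A3, the endoplasmic reticulum calcium pump typical of blood cells, fell from 286 ± 9.37 to 212 ± 0.131 CPM (SD, n = 2 each; log2 difference -0.44, edgeR adjusted p = 4.61e-06). TPCN1, an endolysosomal cation channel, was at 37.5 ± 4.04 CPM in mock and higher, at 45.9 ± 1.33 CPM, with the fusion (SD, n = 2 each; edgeR, adjusted p = 0.0125). It was not called with the DESeq2 test (adjusted p = 0.0594). Its log2 fold change was 0.29 with all libraries and 0.19 without mock replicate 1. The store-operated genes ORAI1, ORAI2, ORAI3, STIM1 and STIM2 were all tested and none was called.

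The voltage-gated sodium channel alpha genes, a related channel family, were read for comparison. Of 10 genes, 6 were tested, 1 was called higher and none lower (edgeR; 3 were higher and 0 lower at an unadjusted p under 0.05). Their median log2 fold change was 0.72. The corresponding shares of the 14750 genes were 13.3% for higher and 11.4% for lower calls. In 5 of the 6 sodium channel genes, both JAZF1-SUZ12 libraries were above both mock libraries in CPM. This held for 31.0% of the 14750 genes, and nothing is read from these counts. The 5 that were not called, SCN2A, SCN4A, SCN7A, SCN8A and SCN9A, had log2 fold changes between 0.17 and 0.97. A difference between the sodium and calcium channel families was not tested.

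In the authors' deposited table of the same comparison, CACNA1H and CACNA1G were called, with log2 fold changes of 3.14 and 4.26 and adjusted p-values of 8.21e-13 and 0.00305, where 4.93% of genes with an adjusted p-value were called higher. CACNA2D2 was called there too, at 2.27 (authors' deposited table, adjusted p = 2.72e-07). CACNA1F missed the threshold of the authors' deposited table (log2 fold change 1.41, adjusted p = 0.146), and so did CACNA1A, CACNA1I and CACNB3 (adjusted p = 0.330, 0.534 and 0.546). The 5 sparse members have no adjusted p-value in the authors' deposited table. Some of its values differ from those of the deposited counts. JAZF1 had a mean normalized count of 602 there, against a mean of 336 counts here. The log2 fold change of CACNB1 was 0.68 there and 0.074 in edgeR. How the authors' values were computed is not given in the sources used here.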

How the data were processed

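RNA-seq was compared between 2 JAZF1-SUZ12 and 2 mock libraries of K562 cells. The libraries were poly(A)-selected and made with a kit that marks strand, per the labels' protocols. The authors deposited a table of estimated counts per gene, in which 29.9% to 33.6% of a library's values were not whole within 1e-06. Their comparison table holds p-values, log2 fold changes, a test score and a mean normalized signal per gene, per the file headers, and it was used only where named. Per the submitters' processing notes, kallisto 0.46.2, fastp 0.20.1, DESeq2 1.30.1 and build hg38 were used, with no role given. How the count table was summed to genes, and whether strand was used, is not given in the sources used here.

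Estimated counts were rounded and fitted with edgeR 4.0.16 (R 4.3.3): filterByExpr, TMM scaling and the quasi-likelihood test over both groups, adjusted by Benjamini-Hochberg over 14750 genes. Alternatives used DESeq2 1.42.0, limma 3.58.1, other scalings, filters and thresholds, a replicate block and each library left out. Of the gene IDs, 35410 matched GENCODE release 29, which gave coordinates and lengths. On simulated counts of 14429 genes with 200 changed by 2-fold, edgeR recovered 170 with 14 false calls and DESeq2 161 with 0. The simulation used the spread fitted to these data. Its changed genes were drawn only above a minimum mean count, so recovery of sparse genes was not measured. Totals of 17260936 to 24423028 set a floor of 3 counts at 0.121 to 0.174 CPM, and intervals cover counting error only. Named by rule were all 10 CACNA1 genes, JAZF1 and SUZ12, the called auxiliary subunits, and up to 5 called genes with the smallest p-values of each other list; other genes named, including uncalled ones, were chosen after their values were seen. The members and lists were chosen with earlier results of these data known, and the neighbour and CG descriptions were added after the values were seen. Libraries with the same replicate number did not deviate together (correlation -0.00073), so the numbers were not taken as pairs. Some genes that the naming rule would give are not reported here.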

Additional observations from a re-analysis of the deposited data

How the results depend on the processing

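With at most 9 counts in any library, CACNA1B, CACNA1C, CACNA1D, CACNA1E and CACNA1S were too sparse to pass the filter, and none was called without it; the counting limits of CACNA1B and CACNA1C lie above 1 and do not cover the spread between libraries. Of the log2 fold changes of named genes under the alternatives, none reversed, 150 kept their side of the threshold and 12 lost the call, among them in CACNA1F, CACNB3, CALM2, CALM3 and TPCN1. Of the levels per kilobase, 20 moved by more than 1 SD, all with another transcript length, and 120 did not. Leaving out 1 of 2 libraries cannot move a mean by more than 1 SD. The levels with a library left out are therefore no sign of stability. The 3643 genes called became 2407 with the DESeq2 test, 2045 at an adjusted p under 0.01 and 837 with a change of at least 2-fold added, and 2455 to 3734 with a library left out. The 3 called CACNA1 genes became 1 with a mean of at least 50 counts, since CACNA1F and CACNA1G fall under that filter, and 2 to 3 with a library left out. The 2 called auxiliary genes became 1 with the 2-fold threshold, and 1 to 2 with a library left out (1 without mock replicate 1). The 5 called regulator and transport genes became 1 at 0.01 and 0 with the 2-fold threshold, and 1 to 6 with a library left out (1 without mock replicate 1). The 1 called sodium channel gene became 2 with no filter, where SCN8A was added, and 1 to 2 with a library left out (2 without mock replicate 2, where SCN2A was added). The causes were not tested beyond the filter. With 1 library left in a group, that library is assumed to vary like the other group. The fit with a replicate block called 4061 genes in all, 3 CACNA1, 2 auxiliary, 6 regulator and transport and 1 sodium channel genes, and changed no call of CACNA1A, CACNA1F, CACNA1G, CACNA1H, CACNA1I, CACNA2D2, CACNB3, CALM2, CALM3, ATP2A3, TPCN1, JAZF1 or SUZ12; the neighbouring, marker and uncalled sodium channel genes were not read under it.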
